A study of Mus musculus with 3 samples.

Results

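Dividing cells are few in circulating blood, and the cycling blood cells described here are those whose droplet held RNA of several cell division genes. A cell barcode was kept with at least 500 unique molecular identifiers (UMIs, each marking 1 captured RNA molecule), 250 or more detected genes and no more than 10% of its UMIs from mitochondrial genes. A kept barcode was called cycling when at least 3 of 10 genes had a UMI: Mki67, Top2a, Birc5, Cdk1, Ccna2, Ccnb1, Ube2c, Rrm2, Pclaf and Tyms. This gave 138 cycling cells among 31064 kept barcodes. The blood came from C57BL/6 mice in 3 groups, with 1 library of peripheral blood mononuclear cells per group and no stated number of mice. In the aged+AA group, aged animals received AA, which the title of the series spells out as ascorbic acid, over 1 month. The aged group was aged mice and the young group young mice, both given PBS for 1 month, and no age in months was given. Blood was layered over lymphocyte separation medium and the cells were run on the 10x Genomics 3' v3 platform. The comparisons ask how blood cells differ with age and after AA.

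A cell that enters division first switches on E2F target genes that make nucleotides and copy DNA (S phase), then a later set of genes that builds the spindle and divides the nucleus (G2 and mitosis, G2/M). The DREAM complex and the MuvB complex act on the later set through a short promoter motif called the cell cycle homology region (CHR). In blood, activated T cells and plasmablasts (B cells on the way to antibody secretion) are known to cycle, while naive lymphocytes and mature granulocytes rest.

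The aged+AA, aged and young libraries held 80424480, 94944551 and 64496639 UMIs. They gave 11713, 10204 and 9147 kept barcodes with medians of 4109, 3724 and 4548 UMIs. With 1 library per group there is no replicate check, so no group was tested against another. The 95% intervals, exact binomial for shares and conditional binomial for ratios, reflect counting error alone. A level is given in CPM, the share of a gene among all UMIs of the cells named on the usual scale of counts per 1000000. No barcode was shared between libraries among the cycling cells, although 33, 27 and 28 kept barcodes were shared between aged+AA and aged, aged and young, and aged+AA and young.

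The 10 genes are described first, as the values that chose the cells. Mki67, which coats mitotic chromosomes, had a UMI in 36 of 44 aged+AA, 62 of 72 aged and 16 of 22 young cycling cells. Its level was 403 CPM in aged+AA, 442 CPM in aged and 234 CPM in young cycling cells, against 1.86, 4.15 and 0.926 CPM in the other cells of those libraries. Top2a, the topoisomerase that untangles replicated DNA, had a UMI in 34, 55 and 14 of these cells. Birc5, a subunit of the chromosomal passenger complex, had one in 28, 56 and 12 cells. The kinase gene Cdk1 and its partners, the cyclin genes Ccna2 and Ccnb1, were found less often: Cdk1 in 19, 34 and 7 cells, Ccna2 in 18, 32 and 6, and Ccnb1 in 15, 18 and 5. Of the S-phase genes, Pclaf, a partner of the replication clamp, had a UMI in 34, 54 and 15 cells. Tyms, which makes thymidylate, had one in 33, 43 and 14 cells, and Rrm2, a subunit of ribonucleotide reductase, in 25, 31 and 7. All 5 of the marker genes Mki67, Top2a, Birc5, Cdk1 and Ube2c were thus present in each library's cycling cells, and at least 2 of them were found in 42 of 44, 71 of 72 and 18 of 22 cells.

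**Figure D1:**
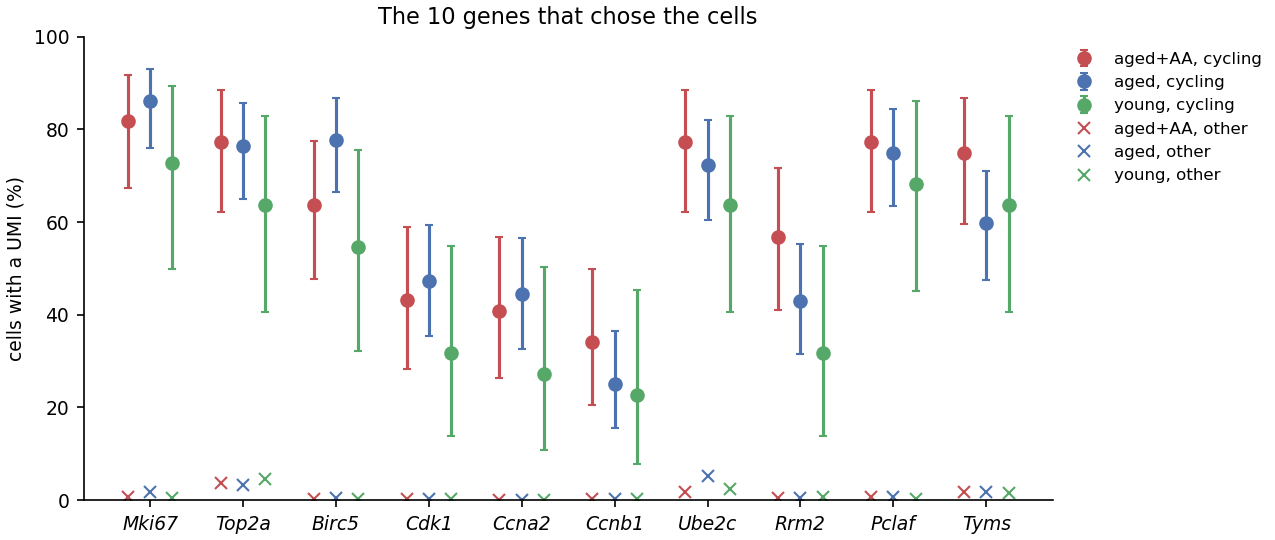
The share of cells with at least 1 UMI of each of the 10 genes, in percent, for cycling cells (points, with exact 95% binomial intervals) and for all other kept barcodes (crosses) of the aged+AA, aged and young libraries. Mki67 was found in 81.8%, 86.1% and 72.7% of cycling cells, and Ccnb1 in 34.1%, 25.0% and 22.7%.

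Promoter windows show which of these genes carry the letters that cell cycle factors are known to bind. RefSeq windows on GRCm38.p6, from 250 bases before to 50 after each gene start, were listed for 9 of the 10 genes. The CHR letters TTTGAA, searched on both strands, were in 4 of these 9 windows, against 5878 of 32851 windows in the table (17.9%). They were in 35 of 50 windows (70.0%) of genes in the mitosis and G2/M list and in 5 of 37 windows (13.5%) of the DNA replication and S phase list. The E2F letters TTTCGCGC, TTTGGCGC or TTTCCCGC ran the other way, in 4 of the 50 mitosis windows (8.0%), 13 of the 37 replication windows (35.1%) and 606 of all windows (1.84%). CCAAT was in 74.0% of mitosis, 56.8% of replication and 37.4% of all windows. All were searched on both strands, and overlaps between motifs were not removed. A match of letters is a description and not a shown binding site.

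The stretches of 5 of the 10 genes are shown because they carry these letters close to the gene start. Capitals mark TTTGAA, or TTCAAA where it lies on the opposite strand, and in Pclaf the E2F letters TTTCCCGC, read here as GCGGGAAA. They lie at chr7:135716422-135716527 (Mki67, minus strand), chr11:99024170-99024262 (Top2a, minus strand), chr10:69352893-69352977 (Cdk1, minus strand), chr2:164769850-164769948 (Ube2c, plus strand) and chr9:65890268-65890342 (Pclaf, plus strand). Each runs 5′ to 3′ along its gene, and the capitals nearest the gene start lie at -98, -23, -15, -29 and -5 from it.
Mki67: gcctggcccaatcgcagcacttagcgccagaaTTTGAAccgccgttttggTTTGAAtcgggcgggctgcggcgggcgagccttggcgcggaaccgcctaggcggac
Top2a: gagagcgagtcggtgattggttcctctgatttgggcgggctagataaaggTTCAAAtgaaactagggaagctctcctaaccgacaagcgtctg
Cdk1: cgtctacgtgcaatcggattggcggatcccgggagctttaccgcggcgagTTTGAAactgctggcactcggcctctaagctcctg
Ube2c: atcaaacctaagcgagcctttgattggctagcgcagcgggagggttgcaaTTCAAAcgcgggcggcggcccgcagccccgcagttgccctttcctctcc
Pclaf: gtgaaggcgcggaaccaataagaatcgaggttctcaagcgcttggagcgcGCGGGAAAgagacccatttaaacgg

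Cycling cells made up a smaller share of the aged+AA library than of the aged library, and a larger share of the aged library than of that from young mice. They were 44 of 11713 aged+AA barcodes (0.376%, 0.273 to 0.504%), 72 of 10204 aged barcodes (0.706%, 0.552 to 0.888%) and 22 of 9147 young barcodes (0.241%, 0.151 to 0.364%). The aged+AA share was 0.532 of the aged share (0.357 to 0.785), and the aged share was 2.93 times the young share (1.80 to 4.97). Both ratios use the aged library, so they are not independent. The aged+AA share was 1.56 times the young share (0.916 to 2.74), an interval that includes no difference. With at least 4 or 5 of the 10 genes required, that ratio was 2.34 (1.22 to 4.78) and 2.52 (1.16 to 6.04). At those limits the aged+AA over aged ratio was 0.641 (0.413 to 0.988) and 0.574 (0.346 to 0.938). With a mitochondrial limit of 5%, the aged over young ratio was 1.92 (1.09 to 3.62) and the aged+AA over young ratio 1.16 (0.620 to 2.29). The aged+AA over aged ratio was then 0.605 (0.391 to 0.922). Cycling cells were deeper than the rest, with medians of 16221, 13543 and 17271 UMIs in aged+AA, aged and young libraries, against 4100, 3700 and 4542 UMIs in the other cells. After each barcode was thinned to 1000 UMIs, leaving out 318, 128 and 52 shallower barcodes, 12 aged+AA, 25 aged and 4 young barcodes still passed. The thinned shares were 0.105%, 0.248% and 0.0440%.

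The cells near the threshold were many and weakly marked. Exactly 3 of the 10 genes were found in 5 aged+AA, 19 aged and 9 young cells, with medians of 7, 4 and 3 UMIs over the 10 genes together. Just outside, 85, 149 and 60 barcodes had exactly 2 of the genes and a median of 2 such UMIs in each library. At the other end, 19 aged+AA, 33 aged and 6 young cells had at least 7 of the genes, with medians of 72, 79 and 84 UMIs. With at least 5 genes required, the shares were 0.248%, 0.431% and 0.0984%.

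**Figure D2:**
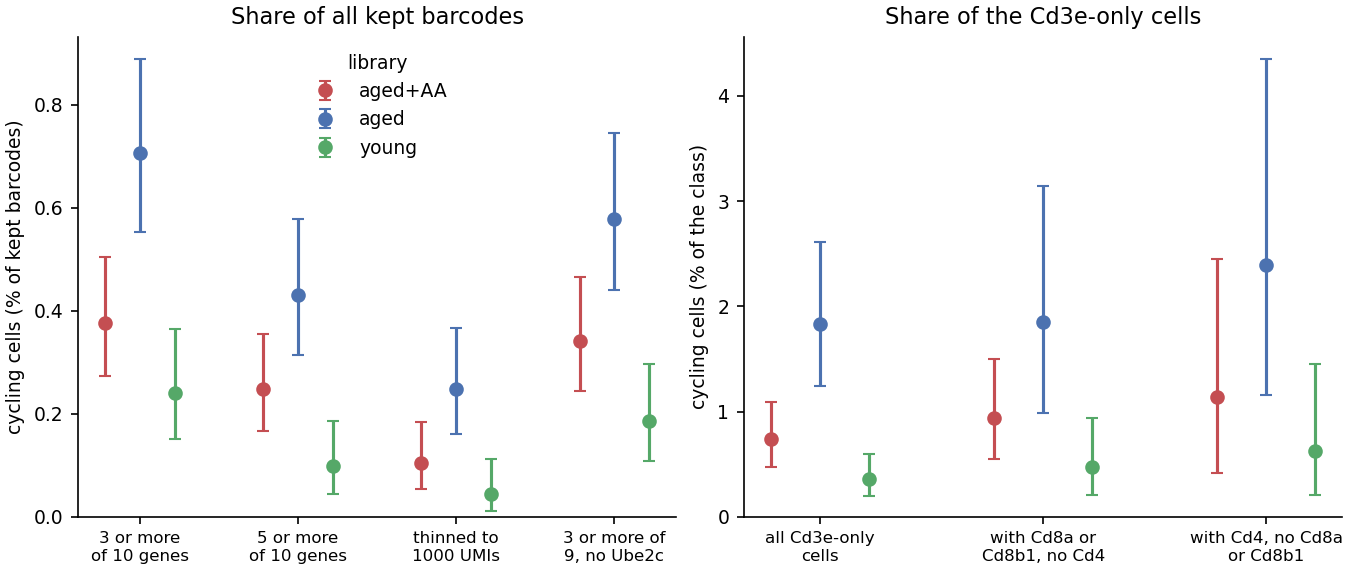
Left, cycling cells in percent of kept barcodes in the aged+AA, aged and young libraries under 4 definitions, the last of which was added after the data were seen. Right, cycling cells in percent of all Cd3e-only cells and of those in the Cd8a or Cd8b1 and the Cd4 gates, where the aged points sit at 1.83%, 1.85% and 2.39%. Points are single libraries and bars exact 95% binomial intervals.

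One of the 10 genes, Ube2c, which loads ubiquitin onto targets of the anaphase-promoting complex, had most of its UMIs outside the cycling cells in barcodes rich in haemoglobin RNA. Barcodes with over 30% haemoglobin UMIs that were not cycling held a Ube2c UMI in 100 of 331 aged+AA, 232 of 858 aged and 165 of 257 young cases (30.2%, 27.0% and 64.2%). In non-cycling barcodes with at most 5% haemoglobin the shares were 0.709%, 2.99% and 0.530%. The haemoglobin-rich barcodes held 65.1%, 52.4% and 91.2% of all Ube2c UMIs outside the cycling cells, against 2.64%, 5.01% and 1.04% for Top2a. Haemoglobin exceeded 5% of the UMIs in 2 of 44 aged+AA, 12 of 72 aged and 2 of 22 young cycling cells. Without Ube2c, 3 or more of the other 9 genes were found in 40, 59 and 17 cells, a ratio of 0.591 (0.385 to 0.897) for aged+AA over aged and 3.11 (1.79 to 5.69) for aged over young. The aged+AA over young ratio without Ube2c was 1.84 (1.02 to 3.46). Without barcodes of over 5% haemoglobin, 42, 60 and 20 cycling cells remained, with ratios of 0.584 (0.384 to 0.881) for aged+AA over aged and 2.93 (1.74 to 5.13) for aged over young.

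Lineage was read from 5 genes: Cd3e (T-cell receptor complex), Cd79a (B-cell receptor), Ncr1 (the natural killer receptor NKp46), Lyz2 (myeloid lysozyme) and Jchain (the joining chain of secreted IgA and IgM). A UMI sufficed for Cd3e, Cd79a and Ncr1, while 5 UMIs were required of Lyz2 and Jchain. In droplets with too few UMIs to hold a cell (28 to 57 UMIs in the aged+AA, 36 to 79 in the aged and 11 to 20 in the young library), Lyz2 stood at 235 CPM in the aged+AA, 3691 CPM in the aged and 189 CPM in the young library. Cd3e was at 140, 41.8 and 112 CPM there, and Cd79a at 1066, 668 and 419 CPM. At least 1 Lyz2 UMI was found in 2.76%, 38.2% and 0.458% of the other Cd3e-only cells, which should lack it, with medians of 5598, 4824 and 5170 UMIs. It was found in 3 of 44, 42 of 72 and 1 of 22 cycling cells. Jchain was found in 2.79%, 2.62% and 0.0964% of those Cd3e-only cells. A cell with 2 or more lineages was set aside as several, except that Jchain with Cd79a counted as Jchain.

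Cells with the T-cell gene Cd3e only were the largest class of cycling cells in every library at these limits. They were 25 of 44 aged+AA, 30 of 72 aged and 15 of 22 young cycling cells (56.8%, 41.7% and 68.2%). Cd79a-only cells numbered 3, 3 and 1, although they were the largest class among kept barcodes of the aged+AA and aged libraries at 48.8% and 44.7%, and 28.9% of the young barcodes. With at least 4 of the 10 genes required, cycling Cd79a-only cells numbered 2, 0 and 0. Among the aged ones, haemoglobin made up 44.1% of the UMIs in 1 cell and 65.3% in another. Jchain cells numbered 3, 6 and 1. The classes with Ncr1 only and with Lyz2 only had 7 and 8 cycling cells in the aged library and 0 in the other libraries. With 1 UMI enough for all 5 genes, Cd3e-only cells were 13 of 72 aged cycling cells and those of several lineages 37 of 72 (51.4%), so the order of these classes in the aged library depends on the limit. Cells of several lineages numbered 12, 13 and 5, and 1, 5 and 0 cells had none of the 5 genes.

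**Figure D3:**
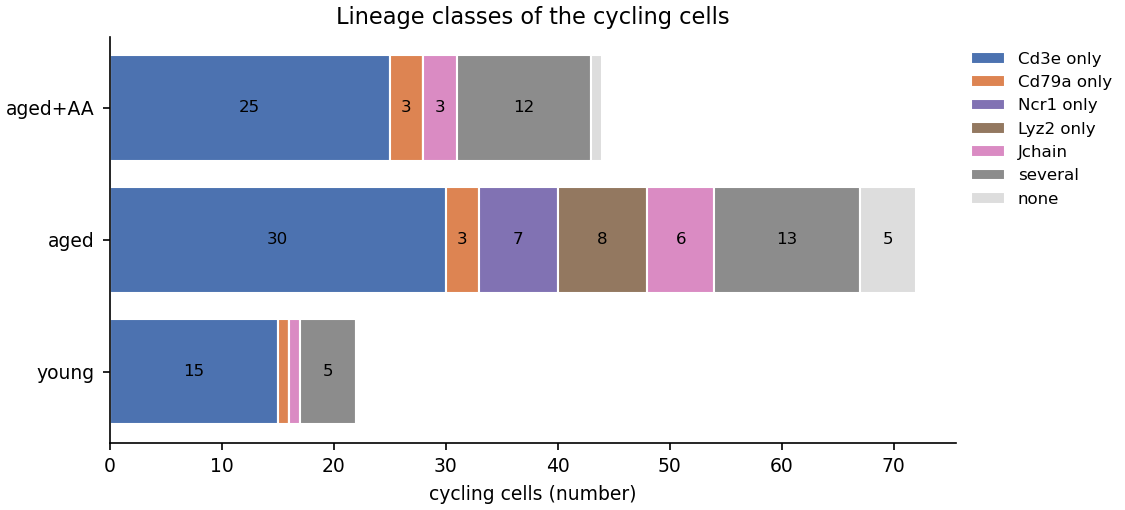
The number of cycling cells of each lineage class in the aged+AA (44 cells), aged (72 cells) and young (22 cells) libraries. Cd3e-only cells are the longest segment in each bar, and segments for Ncr1 only and Lyz2 only appear in the aged library.

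Shares were also compared within the Cd3e-only class. Of Cd3e-only cells, 25 of 3391 in the aged+AA library (0.737%, 0.478 to 1.09%), 30 of 1636 in the aged library (1.83%, 1.24 to 2.61%) and 15 of 4165 in the young library (0.360%, 0.202 to 0.593%) were cycling. The aged+AA over aged ratio was 0.402 (0.227 to 0.707). With 1 UMI enough for all 5 lineage genes it was 0.566 (0.277 to 1.21), an interval that includes 1. The aged over young ratio was 5.09 (2.66 to 10.2), and that of aged+AA over young was 2.05 (1.04 to 4.18). With a mitochondrial limit of 5%, the aged+AA, aged and young shares lay closer together. They were 20 of 2581 (0.775%), 30 of 1574 (1.91%) and 13 of 2037 (0.638%) Cd3e-only cells. Weighted to the class make-up of the aged library, the cycling share came to 0.294% with the class shares of the aged+AA library, against 0.706% with those of the aged library itself and 0.277% with those of the young library. Weighted to the young make-up, the shares were 0.425%, 1.09% and 0.241%, and weighted to the aged+AA make-up 0.376%, 0.822% and 0.287%. No interval was calculated for these weighted shares. The young Jchain class share that enters them, 25.0%, rested on 1 cycling cell of 4, and that cell had 3 of the 10 genes. Cells with Cd8a or Cd8b1 and no Cd4 gave 17 of 1809 (0.940%), 13 of 703 (1.85%) and 8 of 1679 (0.476%) cycling cells in aged+AA, aged and young libraries. Cells with Cd4 and neither Cd8 gene gave 6 of 529 (1.13%), 10 of 418 (2.39%) and 5 of 802 (0.623%). The intervals of the aged+AA over aged ratio included 1 in both gates, at 0.508 (0.232 to 1.14) for the Cd8 gate and 0.474 (0.142 to 1.44) for the Cd4 gate. The aged over young ratio was 3.88 (1.49 to 10.8) in the Cd8 gate and 3.84 (1.20 to 14.3) in the Cd4 gate. Cells with none of the 3 genes gave 1 of 982 (0.102%), 5 of 487 (1.03%) and 2 of 1602 (0.125%), a ratio of 0.0992 (0.00210 to 0.886) for aged+AA over aged.

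Most Jchain cells, cycling or not, held IgA RNA. Cycling cells were 3 of 29 aged+AA, 6 of 43 aged and 1 of 4 young Jchain cells (10.3%, 14.0% and 25.0%), with intervals of 2.19 to 27.4%, 5.30 to 27.9% and 0.631 to 80.6%. With 1 UMI enough for all 5 lineage genes, the class held 316, 134 and 11 cells, of which 0.949%, 2.99% and 9.09% were cycling. Counting also those with Cd3e, 14 cycling cells had at least 5 Jchain UMIs, and in 13 the most abundant heavy chain was Igha. The remaining cell, from the aged+AA library, had 10 Ighg2c and 3 Igha UMIs beside 6 of Jchain. Among Jchain cells that were not cycling, Igha was the most abundant heavy chain in 25 of 26 aged+AA, 35 of 37 aged and 3 of 3 young cells. Igha was at 3, 989 and 1371 UMIs in the 3 aged+AA Jchain-class cells, between 165 and 913 UMIs with a median of 645 in the 6 aged cells, and at 870 UMIs in the young cell. The chaperone gene Mzb1 of antibody-secreting cells was at 15 to 122, 51 to 297 and 136 UMIs in these cells. Jchain itself chose this class, so its level is a description. On the CPM scale, it was lower in cycling than in other Jchain cells of the aged library. It stood at 10120 against 21119 CPM, a ratio of 0.479 (0.453 to 0.506). In the aged+AA library the ratio was 0.519 (0.484 to 0.556), and the young library had 1 cycling cell. Jchain ran from 15 to 455 UMIs over the 6 aged and from 6 to 534 UMIs over the 3 aged+AA cycling cells. These intervals do not cover that spread between cells.

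Cells with Cd3e beside B-lineage genes formed much of the group of several lineages. In the aged+AA library it held 7 cells with Cd3e and Cd79a, 4 with Cd3e, Cd79a and Jchain, and 1 with Cd3e and Ncr1. In those 4 cells Jchain had between 17 and 262 UMIs and Cd3e between 2 and 7 UMIs, over 19094 to 32137 UMIs in all. In the aged library the group held 7 cells with Cd3e and Cd79a, 4 with Cd79a and Lyz2, and 2 with Cd3e and Lyz2, and in the young library 4 with Cd3e and Cd79a and 1 with Cd3e and Ncr1. Scrublet, which predicts doublets, marked 0 of 44 aged+AA, 1 of 72 aged and 2 of 22 young cycling cells. Without cells of several lineages the share ratio was 0.475 (0.299 to 0.742) for aged+AA over aged and 3.24 (1.87 to 5.94) for aged over young. With 2 UMIs required of each of the 5 lineage genes, instead of 1 or 5, cycling cells of several lineages numbered 7 aged+AA, 14 aged and 5 young. Whether the barcodes of several lineages held 2 cells, or lineage gene UMIs from free RNA, was not tested.

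Cycling cells of the natural killer class were found in the aged library. Those with Ncr1 only were cycling in 0 of 173 aged+AA, 7 of 229 aged (3.06%, 1.24 to 6.20%) and 0 of 262 young cases, and the counts of 0 allow shares of up to 1.73% and 1.15% by a limit of 3 counts, or 2.11% and 1.40% by the exact interval. The 7 cells carried 2 to 21 UMIs of Ncr1 with a median of 5, and all 7 also held Klre1, a killer lectin receptor gene, at 5 to 28 UMIs and Gzma, granzyme A, at 104 to 646 UMIs. Gzma stood at 16773 CPM in the cycling and 13068 CPM in the other Ncr1-only cells, a ratio of 1.28 (1.22 to 1.35), while the chemokine gene Ccl5 was at 12499 and 24682 CPM, a ratio of 0.506 (0.476 to 0.538). Klra8, the activating receptor Ly49H, had UMIs in 1 of the 7 cells. E2f2, a transcription factor of the S-phase programme, was at 145 CPM in the cycling and 9.55 CPM in the other cells, from 13 UMIs in 5 cells. A gate of 2 or more of 5 killer cell markers, chosen after the data were seen, did not take in every such cell. In it, cycling cells were 0 of 178 aged+AA, 6 of 246 aged and 0 of 314 young barcodes. Over all lineage classes, at least 2 of Ncr1, Klrb1c, Klra8, Eomes and Klre1 were found in 2, 10 and 2 cycling cells. Ncr1 lay beside Cd3e in 1 aged+AA and 1 young cycling cell, both counted as several lineages.

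Cycling cells of the Lyz2-only class were also found in the aged library, which held the most barcodes of that class. They were 0 of 162 aged+AA, 8 of 1575 aged (0.508%, 0.22 to 0.998%) and 0 of 60 young cells of the class, and the counts of 0 allow up to 1.85% and 5.00% by the limit of 3 counts, or 2.25% and 5.96% by the exact interval, so a difference from the aged share was not detectable. After thinning to 1000 UMIs, 0 of 1564 aged cells of the class passed as cycling, and 5 of the 8 cells had 3 or 4 of the 10 genes. Lyz2 had 67 to 787 UMIs in the 8 cells, with a median of 346.5. Prtn3, a granule protease gene, was found in 7 of the 8 cells and Elane, neutrophil elastase, in 5, at 89.9 CPM in the cycling and 2.48 CPM in the other Lyz2-only cells, a ratio of 36.3 (18.7 to 68.3) from 17 UMIs. Ccr2 and F13a1, genes of classical monocytes, each had UMIs in 7 of the 8 cells. The late granule genes Ngp and Ltf had all their UMIs, 458 and 75, in 1 cell. Siglech, a plasmacytoid dendritic cell gene, had 8 UMIs in 1 cell as well. Retnlg, a gene of mature neutrophils, was at 450 CPM in the cycling and 2986 CPM in the other cells of the class, a ratio of 0.151 (0.120 to 0.186).

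S-phase and G2/M genes were counted per cell with the 10 genes left out of both lists. More G2/M than S-phase UMIs were found in 19 of 44 aged+AA (43.2%, 28.3 to 59.0%), 40 of 72 aged (55.6%, 43.4 to 67.3%) and 8 of 22 young cycling cells (36.4%, 17.2 to 59.3%). The median cell had 75.5 S-phase and 35.5 G2/M UMIs in the aged+AA library, 34.5 of each in the aged library, and 29 and 16 in the young library. Over all cycling cells, G2/M UMIs were 1.05, 1.35 and 0.863 times the S-phase UMIs. The intervals of the 3 shares overlapped. No interval for a difference between libraries was calculated, so whether position within the cycle differed was not tested.

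**Figure D4:**
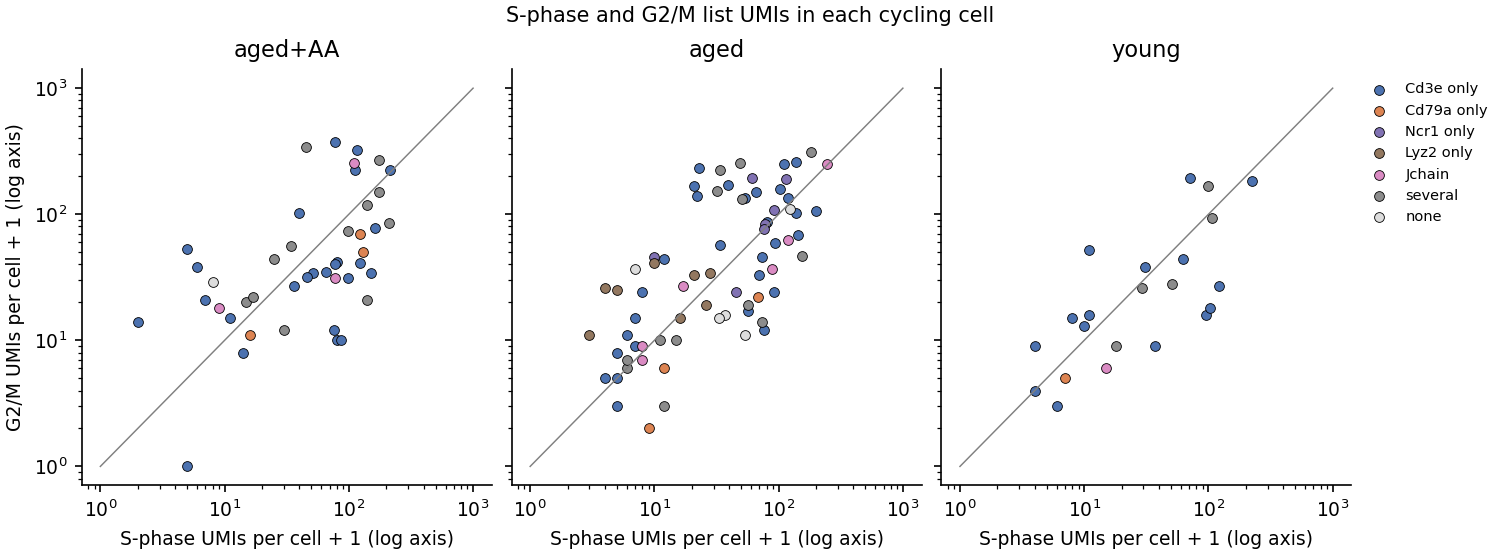
S-phase (x axis) and G2/M (y axis) list UMIs, plus 1, of each cycling cell on log axes, coloured by lineage class, for the aged+AA, aged and young libraries. Points above the grey line have more G2/M UMIs: 19 of 44, 40 of 72 and 8 of 22 cells.

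Over all cycling cells, myeloid genes had the lowest interval bounds in aged+AA against aged cells. Of 7230 genes with at least 20 counts over both libraries, 255 were at least 2-fold higher (3.53%) and 459 at least 2-fold lower (6.35%) in aged+AA. Lyz2 had 4 UMIs in 3 of 44 aged+AA cells, against 4009 UMIs in 42 of 72 aged cells, a ratio of 0.00147 (0.000400 to 0.00376). S100a9 and S100a8, calprotectin genes of neutrophils, had 6 and 10 UMIs in aged+AA, against 3591 and 4339 UMIs in aged cells, where 1 cell held 43.8% and 54.1% of them. Retnlg and Chil3 had no UMI in aged+AA cells, against 472 and 355 UMIs in aged cells. Against a floor of 3 counts over the group, they were at least 107-fold and at least 80.5-fold lower. For Retnlg, 1 aged cell held 80.3% of the UMIs. Ngp had 1 UMI in aged+AA and 565 UMIs in aged cells, where 1 cell held 81.1% of them. In cell-free RNA these genes were also lower in the aged+AA library, S100a9 at 874 against 4070 CPM. The part of free RNA in these ratios was not tested.

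The marker genes Retnlg, Cxcr2 and Csf3r of neutrophils and Csf1r and F13a1 of monocytes had no UMI in the 44 aged+AA cycling cells. The summed level of 5 neutrophil markers ran from 0 to 332 CPM over the aged+AA cells, 0 to 416181 CPM over the aged cells and 0 to 115 CPM over the young cells.

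The genes higher in aged+AA cycling cells included B-lineage genes. Cd79a was at 617 CPM in aged+AA cells, against 160 CPM in aged cells, a ratio of 3.86 (3.24 to 4.61), and it had UMIs in 17 of 44 and 20 of 72 cells. In the free RNA Cd79a stood at 1066 and 668 CPM. Vpreb3, a B-lineage gene, was 6.28-fold higher (3.21 to 13.4), with 47 UMIs in 8 aged+AA cells and 11 UMIs in 6 aged cells. Bhlhe41, a transcription factor gene, was at 82.0 CPM in 10 aged+AA cells and 16.2 CPM in 7 aged cells, a ratio of 5.06 (2.96 to 9.10). Sfn and Pafah1b3 were 5.44-fold (3.28 to 9.42) and 4.10-fold (2.73 to 6.30) higher, and all 35 UMIs of Lipc lay in 1 aged+AA cell. Of 10 genes tested from the immunoglobulin constant list, which also holds Jchain, 9 had a ratio above 1 and 5 were past 2-fold higher. Igha was at 6119 CPM in aged+AA and 3338 CPM in aged cells, a ratio of 1.83 (1.76 to 1.91). Of 40 genes for DNA replication and S phase 32 had a ratio above 1, with a median log2 ratio of 0.39, beside 0.04 over all genes tested. The uracil glycosylase gene Ung, with 34 and 18 UMIs, had the largest ratio of them, 2.78 (1.53 to 5.22). The 59 mitosis genes tested had a median log2 ratio of 0.03, and 1 was past 2-fold higher.

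Between the aged and young libraries, 976 of 6447 genes were at least 2-fold higher (15.1%) and 243 at least 2-fold lower (3.77%) in aged cycling cells, and the median over all genes was 0.19 on the log2 scale. Relative to that median gene 775 were higher and 416 lower, and with ribosomal and mitochondrial genes left out of the CPM 781 and 388. S100a9, Ngp, Retnlg and Ifitm3, which codes for an interferon-induced membrane protein, had 3591, 565, 472 and 1104 UMIs in aged cells and no UMI in young cells, so they were at least 369-fold, 58.0-fold, 48.5-fold and 113-fold higher against a floor of 3 counts over the group. Lyz2 had 4009 and 1 UMIs, and S100a8 4339 and 2 UMIs. The top aged cell of each gene held 43.8% of the S100a9, 81.1% of the Ngp and 80.3% of the Retnlg UMIs. For Ifitm3, Lyz2 and S100a8 the top cell held 24.5%, 19.6% and 54.1%. Mitosis genes were also higher, with 54 of 58 ratios above 1, 26 past 2-fold higher and a median of 0.83. Of the 10 selection genes, 9 had a ratio above 1, with a median of 0.78. The part of the selection in the mitosis shift was not tested. Foxm1, the transcription factor of the G2/M programme, had 36 UMIs in aged and 1 UMI in young cells. The polo-like kinase gene Plk1 had 49 UMIs in 20 aged cells and 3 UMIs in 1 young cell, or 44.1 and 8.76 CPM. The aged cycling cells held 1112297 UMIs in all and the young ones 342578. Of the 39 replication genes tested, 1 was past 2-fold higher and 2 past 2-fold lower, with a median of 0.14. Effector genes split, 10 of 22 being past 2-fold higher and 2 past 2-fold lower. Gzmb, granzyme B, had 179 UMIs in aged and 12 in young cells, a ratio of 4.59 (2.57 to 9.06), whereas Klrg1 had 24 in each library, a ratio of 0.308 (0.167 to 0.566).

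Genes of naive T cells leaned lower in the aged than in the young cycling cells. All 15 genes of that list had a ratio below 1, the nearest being Ccr9 at 0.995 (0.524 to 2.02), 9 of them past 2-fold lower, with a median log2 ratio of -1.14. Dapl1 had 1 UMI in 1 of 72 aged cells, against 54 UMIs in 10 of 22 young cells. Il7r, the interleukin 7 receptor, was at 57.5 CPM in aged and 365 CPM in young cells, a ratio of 0.158 (0.115 to 0.215). Satb1, a chromatin organiser, and Ccr7, the lymph node homing receptor, had ratios of 0.188 (0.134 to 0.261) and 0.229 (0.160 to 0.326). Txnip, an inhibitor of thioredoxin, was at 0.272 (0.225 to 0.329), and Rgcc, a regulator of the cell cycle, at 0.252 (0.179 to 0.352). Cd3e-only cells made up 41.7% of the aged and 68.2% of the young cycling cells, so the lists over all cycling cells also carry that difference in make-up.

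The Cd3e-only cycling cells of the aged+AA (25 cells) and aged (30 cells) libraries could be compared within 1 lineage. Of 4518 genes, 127 were at least 2-fold higher (2.81%) and 191 at least 2-fold lower (4.23%) in aged+AA. With ribosomal and mitochondrial genes left out of the CPM, 177 were higher and 147 lower, so the balance of the 2 counts depends on the scaling. Mitosis genes leaned lower, with 7 of 53 ratios above 1, 10 past 2-fold lower and none past 2-fold higher. Their median log2 ratio was -0.44, beside 0.02 over all genes. The 10 selection genes had 1 of 10 ratios above 1 and a median of -0.38. The part of the selection in the mitosis shift was not tested. Cdc25b, the phosphatase that starts mitosis, was at 75.5 CPM in aged+AA and 199 CPM in aged cells, a ratio of 0.379 (0.236 to 0.592). Nusap1, a spindle protein gene, was at 116 and 268 CPM, a ratio of 0.432 (0.295 to 0.624). Tpx2, which activates the Aurora A kinase, had a ratio of 0.422 (0.244 to 0.705). Plk1, at 62.1 and 45.2 CPM, ran the other way with 1.37 (0.703 to 2.74), from UMIs in 3 of 25 and 11 of 30 cells. Ccnb2 had 83 UMIs in each library. The replication list did not lean lower, with 20 of 35 ratios above 1, none past 2-fold and a median of 0.10.

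Histone genes gave the lowest interval bounds of this comparison. Hist1h2ap was at 399 CPM in 15 of 25 aged+AA cells and 1596 CPM in 23 of 30 aged cells, a ratio of 0.25 (0.208 to 0.30). Hist1h2ae, which also codes for a replication-dependent H2A, was at 237 and 866 CPM, a ratio of 0.274 (0.214 to 0.348). These genes lie in clusters of near-identical copies, so their counts are uncertain. The replication-independent histone gene H3f3b was at 2258 and 2239 CPM. Of 19 histone genes, 6 had a ratio above 1 and 3 were past 2-fold lower. The other genes with the lowest bounds were Serinc3 at 0.373 (0.253 to 0.540), Epb41, a membrane skeleton protein gene, at 0.290 (0.139 to 0.561), the histone methyltransferase gene Nsd2 at 0.339 (0.196 to 0.562) and Arf3 at 0.254 (0.101 to 0.563).

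Effector genes leaned higher in the same aged+AA T cells. Of 17 tested, 14 had a ratio above 1 and 2 were past 2-fold higher, with a median log2 ratio of 0.62. Ccl5 was at 6378 CPM in aged+AA and 3868 CPM in aged cells, a ratio of 1.65 (1.54 to 1.76), with medians of 75 and 2.5 UMIs per cell and a range of 0 to 318 and 0 to 271. Gzmb had a ratio of 1.68 (1.26 to 2.25) and Gzmk, granzyme K, 1.90 (1.27 to 2.88), while Gzma was at 1961 and 2521 CPM, a ratio of 0.778 (0.705 to 0.858). Ifng, interferon gamma, had 25 UMIs in 11 of 25 aged+AA cells and 7 UMIs in 6 of 30 aged cells, a ratio of 3.63 (1.53 to 9.93). Klrc1, the inhibitory receptor NKG2A, had 23 UMIs in 9 cells and 4 UMIs in 3 cells. Ly6c2, a surface antigen of memory Cd8 T cells, was at 297 and 95.6 CPM, a ratio of 3.1 (2.11 to 4.66), with UMIs in 13 of 25 and 9 of 30 cells. Of Cd3e-only cycling cells, 68.0% of the aged+AA and 43.3% of the aged ones fell in the Cd8 gate, and its part in these ratios was not tested.

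Other genes higher in these aged+AA cells were Ctla2a, a cathepsin inhibitor gene, at 2.58 (1.99 to 3.38), and Smad7, an inhibitor of TGF-beta signalling, at 2.53 (1.79 to 3.63). The deubiquitinase gene Usp48 was at 3.18 (1.75 to 6.13), the phosphatase gene Dusp10 at 3.55 (1.72 to 8.05) and Arl5c at 3.61 (1.68 to 8.60). In free RNA Smad7 stood at 323 CPM in the aged+AA and 122 CPM in the aged library, and Dusp10 at 173 and 59.9 CPM. Maf and Tnfrsf4, genes of helper and regulatory T cells, were past 2-fold lower, at 0.411 (0.219 to 0.738) and 0.397 (0.162 to 0.892). Foxp3, the regulatory T-cell factor, had 1 UMI in 1 of 25 aged+AA cells, 10 UMIs in 4 of 30 aged cells and 10 UMIs in 2 of 15 young cells.

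**Figure D5:**
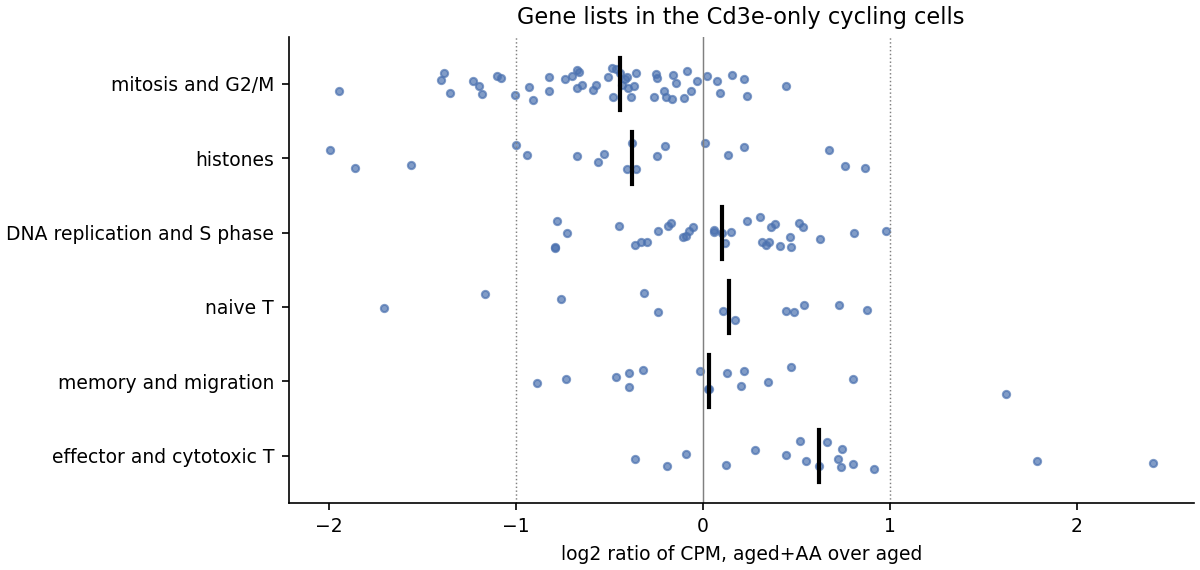
The log2 ratio of CPM, aged+AA over aged, in Cd3e-only cycling cells for each tested gene (points, spread vertically for sight) of 6 lists, with the list median as a black bar and 2-fold as dotted lines. The median is -0.44 for mitosis and G2/M and 0.62 for effector and cytotoxic T genes.

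Cycling and other Cd3e-only cells of the same library were set side by side as a description, since the cells were chosen by correlated genes. Of 4198 aged+AA, 4355 aged and 2484 young genes, 750 (17.9%), 643 (14.8%) and 362 (14.6%) were at least 2-fold higher in cycling cells. At least 2-fold lower were 167 (3.98%), 222 (5.10%) and 91 (3.66%). The genes highest by their interval bounds in both the aged+AA and the aged library were division genes outside the 10, and the young values are given beside them. Ccnb2, a mitotic cyclin gene, was at 224 CPM in cycling and 0.893 CPM in other cells of the aged+AA library, 220 and 1.16 CPM in the aged, and 135 and 0.861 CPM in the young library. Its ratios were 251, 190 and 157, and 113, 139 and 37.6 against other cells of matched depth. Hist1h1b, a linker histone, was at 710 and 4.42 CPM, 815 and 4.53 CPM, and 430 and 4.17 CPM. The replication list was past 2-fold higher in 28 of 28, 30 of 30 and 18 of 20 genes, and the mitosis list in 33 of 34, 42 of 42 and 9 of 11. Cenpf (a kinetochore protein), Kif15 and Hmmr (spindle proteins), Tpx2, Aurkb (the Aurora B kinase), Cdca3, Esco2 (a cohesin acetyltransferase) and Hist1h3c made up the rest of the 10 named genes.

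The promoters of Ccnb2 and Kif15 are shown as examples of the CHR letters in this later set, with the motif in capitals at 4 from the start of Ccnb2 (chr9:70421535-70421600, minus strand) and at -19 from that of Kif15 (chr9:122951012-122951100, plus strand).
Ccnb2: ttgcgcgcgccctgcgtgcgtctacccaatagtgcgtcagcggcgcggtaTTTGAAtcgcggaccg
Kif15: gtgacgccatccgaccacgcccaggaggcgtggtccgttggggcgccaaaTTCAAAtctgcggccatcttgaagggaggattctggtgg

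The lowest genes by the same bounds included genes of resting and naive T cells. Ccr7 was at 72.8 CPM in cycling and 506 CPM in other aged+AA cells, 53.1 and 354 CPM in the aged, and 200 and 482 CPM in the young library. Bcl2, an inhibitor of apoptosis, was at 130 and 599 CPM, 112 and 554 CPM, and 135 and 393 CPM. Igfbp4, Dapl1 and Rflnb had ratios below 1 in each library, and Igfbp4 had no UMI in 25 aged+AA and Dapl1 none in 30 aged cycling cells. The naive list had medians of -1.56, -1.51 and -1.06 on the log2 scale, with 9 of 14, 10 of 15 and 8 of 14 genes past 2-fold lower. Btg1 and Klf2, genes of the resting state, were lower too: Btg1 had ratios of 0.315 (0.275 to 0.360), 0.239 (0.201 to 0.284) and 0.426 (0.368 to 0.491). Klf2 had ratios of 0.376, 0.380 and 0.415.

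Genes of memory and migration, such as galectins and S100 proteins, were also higher in the cycling T cells, past 2-fold in 11 of 16, 9 of 16 and 13 of 16 genes of the aged+AA, aged and young libraries. Lgals1, galectin 1, was at 3372 CPM in cycling and 311 CPM in other aged+AA cells, 3405 and 462 CPM in the aged, and 2200 and 175 CPM in the young library. S100a4 had ratios of 4.59 (4.07 to 5.16), 2.30 (2.03 to 2.60) and 12.6 (11.2 to 14.2). Gzma was 8.5-fold (7.85 to 9.19) and 10.1-fold (9.35 to 10.9) higher in cycling cells of the aged+AA and aged libraries, and in the young library it had 7 UMIs in 4 of 15 cells, a ratio of 0.617 (0.248 to 1.28). Gzmk was 10.2-fold (7.81 to 13.1) and 2.80-fold (1.95 to 3.91) higher, with 3 UMIs in 1 young cell. Of the cell cycle regulators, Cdk4, the kinase of early G1, was 2.30-fold, 2.36-fold and 2.76-fold higher. Its partner Ccnd2 was at 0.365 (0.223 to 0.565), 0.258 (0.160 to 0.396) and 0.566 (0.323 to 0.921) of the other cells. The inhibitor gene Cdkn1b (p27) was at 0.594, 0.552 and 0.723, and Cdkn2c (p18) was 8.72-fold (5.22 to 13.9) and 5.03-fold (2.93 to 8.22) higher in the aged+AA and aged libraries, with 2 UMIs in the young one. Cycling Cd3e-only cells had medians of 14222, 11637 and 17162 UMIs, against 5598, 4824 and 5170 in the others.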

How the data were processed

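Peripheral blood mononuclear cells of 3 groups of mice were measured by droplet single-cell RNA sequencing, with 1 library per group. The deposited matrices hold whole-number UMI counts of each gene in every barcode, unfiltered. Per the file headers, Cell Ranger 4 wrote them. The build mm10 and Seurat 3.1.0 are listed, without roles, per the submitters' processing notes. Filters on cells by the authors are not given in the sources used here.

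Counts were read with Python 3.11.15, numpy 2.4.6 and scipy 1.17.1. Barcodes were kept at 500 or more UMIs, 250 or more genes and at most 10% mitochondrial UMIs, and Scrublet (scanpy 1.11.5) marked doublets, which stayed in. Figures were drawn with matplotlib 3.10.9. Counts were summed over cells of a library, scaled to CPM (counts per 1000000) and compared as ratios for genes with 20 or more counts. For cycling over other cells, the 20 counts applied after scaling the other cells to the cycling total, a choice made after the data were seen. List medians use log2 ratios with 0.5 added to each count. A gene was called past 2-fold by its ratio. Intervals are 95% Clopper-Pearson and conditional binomial ones and cover counting error only. The ratio calculation was tested on simulated data.

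Cells and gene lists were chosen with earlier results of these data known. The text names the 10 selection and 5 lineage genes, the 6 genes each way per library comparison with the most extreme interval bound nearest 1 and 30 or more counts (leaving out antigen receptor, haemoglobin, ribosomal, mitochondrial, sex-linked and clone-named genes), and, of each list, members past 2-fold or highest in counts. For cycling over other cells it names the 10 highest and 5 lowest genes by interval bounds. That last rule required 20 cycling cells in every library, and the young Cd3e-only class had 15, so genes were ranked over the aged+AA and aged libraries, with young values beside them. The Cd8, Cd4 and killer cell gates were chosen after the data were seen, as were other genes named from a class. Promoter sequences are RefSeq's on GRCm38.p6, and the matrices give no gene coordinates.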

Additional observations from a re-analysis of the deposited data

How the results depend on the processing

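With the barcodes thinned to 1000 UMIs, the aged over young ratio of cycling shares was 5.64 (1.95 to 22.3). With a mitochondrial limit of 5% it was 1.92 (1.09 to 3.62). Within thinned Cd3e-only cells the ratios were 0.223 (0.0695 to 0.629) for aged+AA over aged and 16.6 (3.75 to 151) for aged over young. Those Cd3e-only ratios rest on 6 aged+AA, 13 aged and 2 young cycling cells. With 1 UMI enough for all 5 lineage genes, Cd3e-only cells were 18.1% of the aged cycling cells, and with a mitochondrial limit of 5% they were 86.7% of the young ones. Counts of genes past 2-fold moved mostly with the minimum of counts. For aged+AA over aged they were 1862 higher and 2636 lower with no minimum, and 88 and 187 with 50 counts. For aged over young they were 2413 and 1510, and 372 and 85. For Cd3e-only cells they were 1747 and 1955, and 22 and 28. Aged over young, 388 genes were lower without ribosomal and mitochondrial genes and 416 relative to the median gene. In Cd3e-only cells, aged+AA over aged, 290 were lower with each cell weighed the same. For cycling over other Cd3e-only cells, 50 counts gave 357 higher and 73 lower in aged+AA, 314 and 78 in aged, and 135 and 32 in young cells. Other cells of matched depth gave 139 lower genes in the aged and 47 in the young library. The cause of these shifts was not tested beyond the fewer or more genes that a minimum admits. Of 145 alternatives for named library ratios 144 kept their value within its interval, and none reversed direction. The exception was Hist1h2ap with each cell weighed the same, at 0.205. Named genes with no UMI in a library compared were not among these 145. Alternatives that only rescale CPM multiply every ratio of a comparison by the same factor, so they could hardly move a value. Without ribosomal and mitochondrial genes, Sfn went from 5.44 to 5.755 and Cd79a from 3.86 to 4.08. Leaving out Scrublet doublets removed no Cd3e-only cycling cell, so those ratios could not change. Of 111 alternatives for other values of lineage and shares, 90 stayed the same, 21 moved and none reversed. Leaving out a replicate was not possible with 1 library per group. No paired analysis was possible because each group had 1 library.

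The share of cycling cells rests on 22 to 72 cells per library, and many lie near the threshold. With at least 5000 UMIs, and without Ube2c, both alternatives chosen after the data were seen, the aged+AA over aged ratio was 0.524 and 0.591, and the aged over young ratio 3.17 and 3.11. Mouse, library and group cannot be told apart here, and the number of mice behind a library was not given.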
